A study of Mus musculus with 12 samples.

Results

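The 10 genes described here are feedback regulators and target genes of Wnt signalling: Notum, Nkd1, Axin2, Lgr5, Sp5, Rnf43, Znrf3, Tbx3, Glul and Lef1. They are 10 of the 21878 genes in the deposited count table, and all 10 were among the 14330 genes that passed the filter on low counts. Notum and Nkd1 were chosen for their measured values, low with either treatment alone and close to untreated with both. Their values are therefore given as a description, without a test. The other 8 genes were listed to ask whether they share that pattern, and their values were tested.

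Total RNA of 12 libraries from murine liver tumour cells was sequenced, all labelled as the cell line Hepa1-6, a hepatoma line of the mouse. The groups hold 3 libraries each: untreated, given mIFNalpha (IFNa, an interferon that acts through the type I interferon receptor), given an anti-PD-1 antibody (antiPD1, which blocks an inhibitory receptor of T cells), or given both (the combination). Doses, times, strain and age are not stated in the labels. Nothing in the labels tells whether the 3 libraries of a group are separate animals, cultures or preparations, so p-values measure only the spread between these libraries, which may be technical.

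In canonical Wnt signalling, a secreted Wnt protein binds a Frizzled receptor with its co-receptor, the destruction complex that degrades beta-catenin is inhibited, and beta-catenin joins TCF/LEF factors on DNA. Many of the genes switched on in this way act back on the pathway, as inhibitors of the ligand, the receptor or the complex, so their RNA is widely read as a gauge of signalling. In the healthy liver the pathway is active around the central vein, where hepatocytes express Glul, Axin2, Lgr5 and Tbx3, and hepatocellular tumours often carry mutations that activate it.

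All 10 genes are protein-coding in GENCODE M21 on mm10. Notum lies at chr11:120653788-120661175 on the minus strand and Nkd1 at chr8:88521354-88594884 on the plus strand. Axin2 (chr11:108920349-108950783, plus), Rnf43 (chr11:87662722-87735539, plus) and Znrf3 (chr11:5276324-5444847, minus) share chromosome 11 with Notum. Lgr5 is at chr10:115450311-115587780 (minus), Sp5 at chr2:70474923-70477729 (plus) and Tbx3 at chr5:119670669-119684724 (plus). Glul is at chr1:153899944-153909723 (plus) and Lef1 at chr3:131110471-131224356 (plus).

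Because most of the members moved together, the promoter sequences were searched for the letters that TCF/LEF factors are known to prefer. The 250 bases before the start (RefSeq, GRCm38.p6) were matched by symbol for 6 of the 10 members, in 10 windows. They were searched on both strands for CTTTGAA or CTTTGAT and for CTTTGTA or CTTTGTT, which end differently, so that a place counts once. A match was present in 14.8% of all 32851 promoter windows of this length, and at least 2 matches in 1.43%. Sp5 had 2 matches, starting 222 and 104 bases before the start, and 1 of the 4 windows of Lef1 had 1. The windows of Nkd1, Axin2, Rnf43 and Glul held none of these letters. The 3 windows below are shown because Sp5 was the member nearest to Nkd1 after Notum while Axin2 and Nkd1, without a match, moved with it. The sequences are 5′ to 3′ on the plus strand, and capitals mark the matches. The Nkd1 window precedes the RefSeq start, which lies inside the gene as GENCODE draws it.
Sp5 (chr2:70474673-70474922): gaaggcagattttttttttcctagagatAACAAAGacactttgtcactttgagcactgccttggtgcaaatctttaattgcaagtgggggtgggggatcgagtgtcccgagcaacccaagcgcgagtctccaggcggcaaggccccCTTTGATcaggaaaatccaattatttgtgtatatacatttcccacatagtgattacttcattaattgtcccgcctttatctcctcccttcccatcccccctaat
Axin2 (chr11:108920099-108920348): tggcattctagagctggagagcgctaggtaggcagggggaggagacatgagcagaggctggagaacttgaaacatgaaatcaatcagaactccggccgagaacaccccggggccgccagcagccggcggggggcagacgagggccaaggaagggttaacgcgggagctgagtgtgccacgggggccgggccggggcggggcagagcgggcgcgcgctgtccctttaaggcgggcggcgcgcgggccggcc
Nkd1 (chr8:88527383-88527632): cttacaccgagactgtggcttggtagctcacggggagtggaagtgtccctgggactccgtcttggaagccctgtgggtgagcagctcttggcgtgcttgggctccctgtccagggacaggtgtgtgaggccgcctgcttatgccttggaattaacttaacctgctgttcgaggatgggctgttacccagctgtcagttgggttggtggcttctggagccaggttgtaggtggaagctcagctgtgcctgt

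Library totals ranged from 31.3 to 38.5 M counts, and levels below are counts per M (CPM) after TMM scaling, with SD over n = 3. Although all libraries carry a cell line label, markers of other cells were measured in each. The summed level of 10 T cell markers was 39.9 to 52.5 CPM in untreated libraries, 25.6 to 79.4 with IFNa, 71.7 to 310 with antiPD1 and 112 to 142 with the combination. The sum of 8 macrophage markers was 285 to 525, 333 to 546, 977 to 4168 and 1283 to 1650 CPM in the same order, and that of 8 fibroblast markers 456 to 1695, 1290 to 1494, 1488 to 4189 and 1534 to 1889. The sum of 9 adult hepatocyte markers was 256 to 380, 305 to 1074, 304 to 2385 and 308 to 1395 CPM. No marker in these lists had a count of 0 throughout a group. The 6 hepatoma markers were those measured of Afp, Gpc3, H19, Igf2, Alb, Ttr and Hnf4a. How far they tell hepatoma cells from adult hepatocytes was not tested. Their sum was 21068 to 23688 CPM untreated, 18001 to 22714 with IFNa, 14159 to 24832 with antiPD1 and 13153 to 17799 with the combination, the last wholly below untreated. Among these 6, Afp and Hnf4a fell with antiPD1 (adjusted p = 0.0281 and 0.0389) and with the combination (0.0159 and 0.0179). The sum of 7 pancreatic acinar markers, like Notum, was lower in every library given a single treatment than in every untreated one, and combination 3 lay among the former. It was 34.8 to 68.7 CPM untreated, 24.2 to 34.2 with IFNa, 15.5 to 19.3 with antiPD1 and 18.6 to 84.5 with the combination. Apart from Cela1, the other 6 acinar markers summed to 0.259, 31.6 and 18.8 CPM in the untreated libraries and 60.1, 33.5 and 0.386 with the combination, and to at most 0.623 CPM in any library given a single treatment. The sum of these 6 was thus near 0 in untreated 1, where Notum was highest, and in combination 3. Library antiPD1 3 stood apart with the highest T cell, macrophage, fibroblast, hepatocyte and hepatoma sums, and IFNa 1 had the highest hepatocyte sum of its group. Member folds and medians printed below that moved by over 1.5 times without antiPD1 3 are given with and without it. Folds of single genes in the pathway lists are given with all libraries only. In such mixed RNA, fewer cells of a type and less RNA per cell cannot be told apart, and the part of these markers in the results below was not tested.

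**Figure D1:**
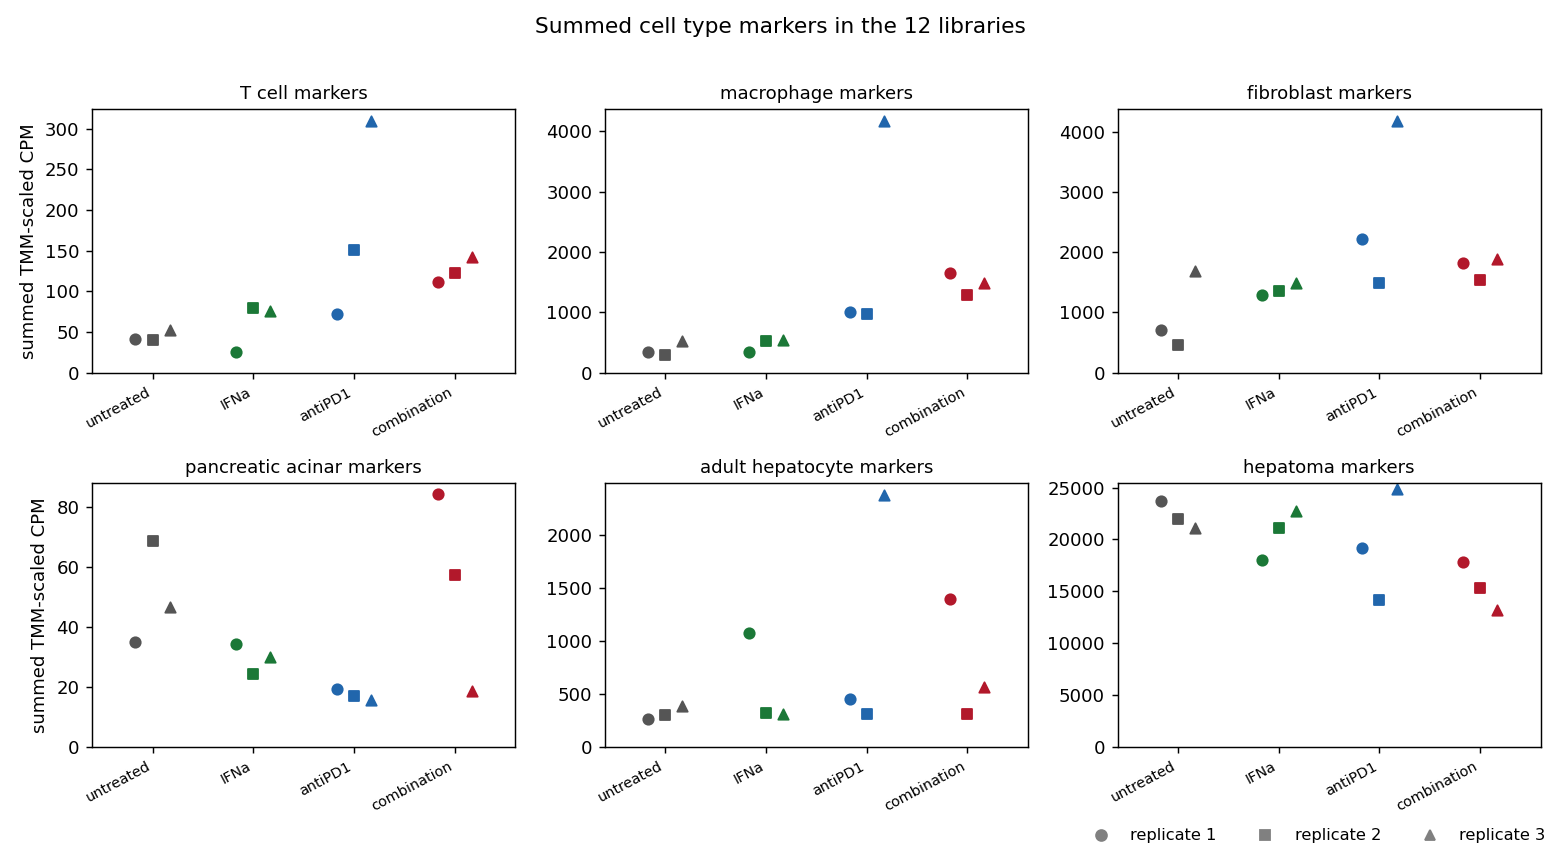
Summed CPM (linear axes from 0) of 5 marker lists of other cell types and of hepatoma markers, by group, with 1 point per library and its replicate number as the shape. The antiPD1 points spread most widely for T cell and macrophage markers, from 71.7 to 310 and from 977 to 4168 CPM, and their upper ends are antiPD1 3.

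Notum encodes a secreted enzyme that inactivates Wnt proteins by removing their lipid. Its levels were 210.3, 209 and 84.5 CPM in the untreated libraries, 30.2, 52.5 and 56.7 with IFNa, 76.8, 60.2 and 52.1 with antiPD1, and 132, 145 and 98.2 with the combination. All 6 libraries given a single treatment lay below all 3 untreated libraries, and all 3 combination libraries lay above all 6. Untreated 3, at 84.5 CPM, was below every combination library. The means were 168 ± 72.2, 46.4 ± 14.2, 63.0 ± 12.6 and 125 ± 24.1 CPM. Notum was lower by 1.85 ± 0.35 (log2, SE) with IFNa, 1.41 ± 0.35 with antiPD1 and 0.43 ± 0.34 with the combination. The combination value was -0.75 without untreated 3 and -0.23 without untreated 1. The log2 effect of both treatments together exceeded the sum of the 2 single effects by 2.84 ± 0.49.

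Nkd1 encodes a cytoplasmic inhibitor that binds Dishevelled. It measured 134, 146 and 87.4 CPM in untreated libraries, 57.7, 53.8 and 54.8 with IFNa, 80.0, 64.2 and 45.2 with antiPD1, and 122, 131 and 84.3 with the combination. As for Notum, the 6 libraries given a single treatment lay below the untreated and below the combination libraries. The means were 123 ± 31.1, 55.5 ± 2.02, 63.1 ± 17.4 and 113 ± 24.8 CPM, which gives log2 differences from untreated of -1.15 ± 0.24, -0.96 ± 0.24 and -0.12 ± 0.24. Nkd1 exceeded the sum of its single effects by 1.98 ± 0.34 (log2).

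Axin2 encodes a scaffold of the destruction complex and is among the most widely used Wnt target genes. Its levels were 206, 264 and 217 CPM untreated, 177, 149 and 126 with IFNa, 211, 157 and 82.1 with antiPD1, and 222, 210.3 and 198 with the combination. The IFNa libraries did not overlap the untreated ones, but antiPD1 1, at 211 CPM, lay among the untreated libraries while antiPD1 3 was the lowest of all 12. The means were 229 ± 30.9, 150.4 ± 25.7, 150.2 ± 64.9 and 210.0 ± 11.7 CPM.

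Rnf43 and Znrf3 encode transmembrane ubiquitin ligases that remove Frizzled receptors from the cell surface. Rnf43 measured 197, 206 and 181 CPM untreated, 122, 151 and 128 with IFNa, 170.0, 160.1 and 85.4 with antiPD1, and 163, 176 and 158 with the combination. The libraries given IFNa, antiPD1 or the combination all lay below the untreated ones, and the combination overlapped antiPD1. Znrf3 measured 53.0, 37.8 and 45.0 CPM untreated, 30.7, 35.6 and 29.0 with IFNa, 36.8, 34.0 and 25.4 with antiPD1, and 40.5, 40.4 and 37.6 with the combination. Znrf3 had the order of Notum and Nkd1, with the libraries given a single treatment below both other groups, but by narrow margins: antiPD1 1 at 36.8 CPM, combination 3 at 37.6 and untreated 2 at 37.8 were neighbours. The means of Rnf43 were 195 ± 12.4, 134 ± 15.3, 139 ± 46.3 and 165 ± 9.21 CPM, and those of Znrf3 were 45.3 ± 7.59, 31.8 ± 3.41, 32.1 ± 5.95 and 39.5 ± 1.66 CPM.

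Lgr5 encodes a receptor for R-spondins, secreted proteins that take Rnf43 and Znrf3 out of action, and marks Wnt-dependent stem cells in the gut. It measured 118, 111 and 88.9 CPM untreated, 78.5, 66.7 and 56.5 with IFNa, 86.2, 62.1 and 35.2 with antiPD1, and 88.5, 88.2 and 66.0 with the combination. All 9 treated libraries were below the 3 untreated ones, with antiPD1 1 and combination 1 and 2 just under untreated 3. The means were 106 ± 15.2, 67.2 ± 11.01, 61.2 ± 25.5 and 80.9 ± 12.9 CPM.

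Sp5, Tbx3 and Lef1 encode transcription factors. Sp5, a zinc finger factor switched on by Wnt signalling, measured 48.5, 60.4 and 31.2 CPM untreated, 23.0, 17.3 and 18.5 with IFNa, 24.0, 16.2 and 9.74 with antiPD1, and 28.5, 32.5 and 20.7 with the combination. Single-treatment libraries lay below the untreated ones, and the combination overlapped all 3 other groups. Tbx3, a T-box repressor expressed by pericentral hepatocytes, measured 582, 536 and 438 CPM untreated, 307, 327 and 287 with IFNa, 315, 348 and 228 with antiPD1, and 364, 378 and 309 with the combination. Every treated library of Tbx3 was below every untreated one, the combination included. The means of Sp5 were 46.7 ± 14.7, 19.6 ± 3.01, 16.6 ± 7.16 and 27.2 ± 6.00 CPM, and those of Tbx3 were 519 ± 73.2, 307 ± 19.8, 297 ± 61.7 and 350.3 ± 36.7 CPM.

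Lef1, a DNA-binding partner of beta-catenin that T cells also express, was the scarcest member. It measured 4.31, 4.54 and 1.92 CPM untreated, 2.52, 2.89 and 2.33 with IFNa, 5.27, 4.52 and 4.09 with antiPD1, and 3.41, 3.08 and 3.03 with the combination. Its antiPD1 libraries were above its combination libraries, the opposite of Notum, and also above its IFNa libraries, while the untreated libraries overlapped all groups. The sum of T cell markers was 71.7, 151 and 310 CPM in antiPD1 1, 2 and 3, the last 2 being the highest of all libraries. The part of T cells in the Lef1 values was not tested. Glul encodes glutamine synthetase, the classical pericentral enzyme. It measured 297, 389 and 458 CPM untreated, 345, 362 and 352 with IFNa, 396, 434 and 542 with antiPD1, and 489, 481 and 412 with the combination. No treated group of Glul was separate from the untreated libraries. The means of Glul were 381 ± 80.9, 353 ± 8.90, 457 ± 75.8 and 461 ± 42.6 CPM.

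**Figure D2:**
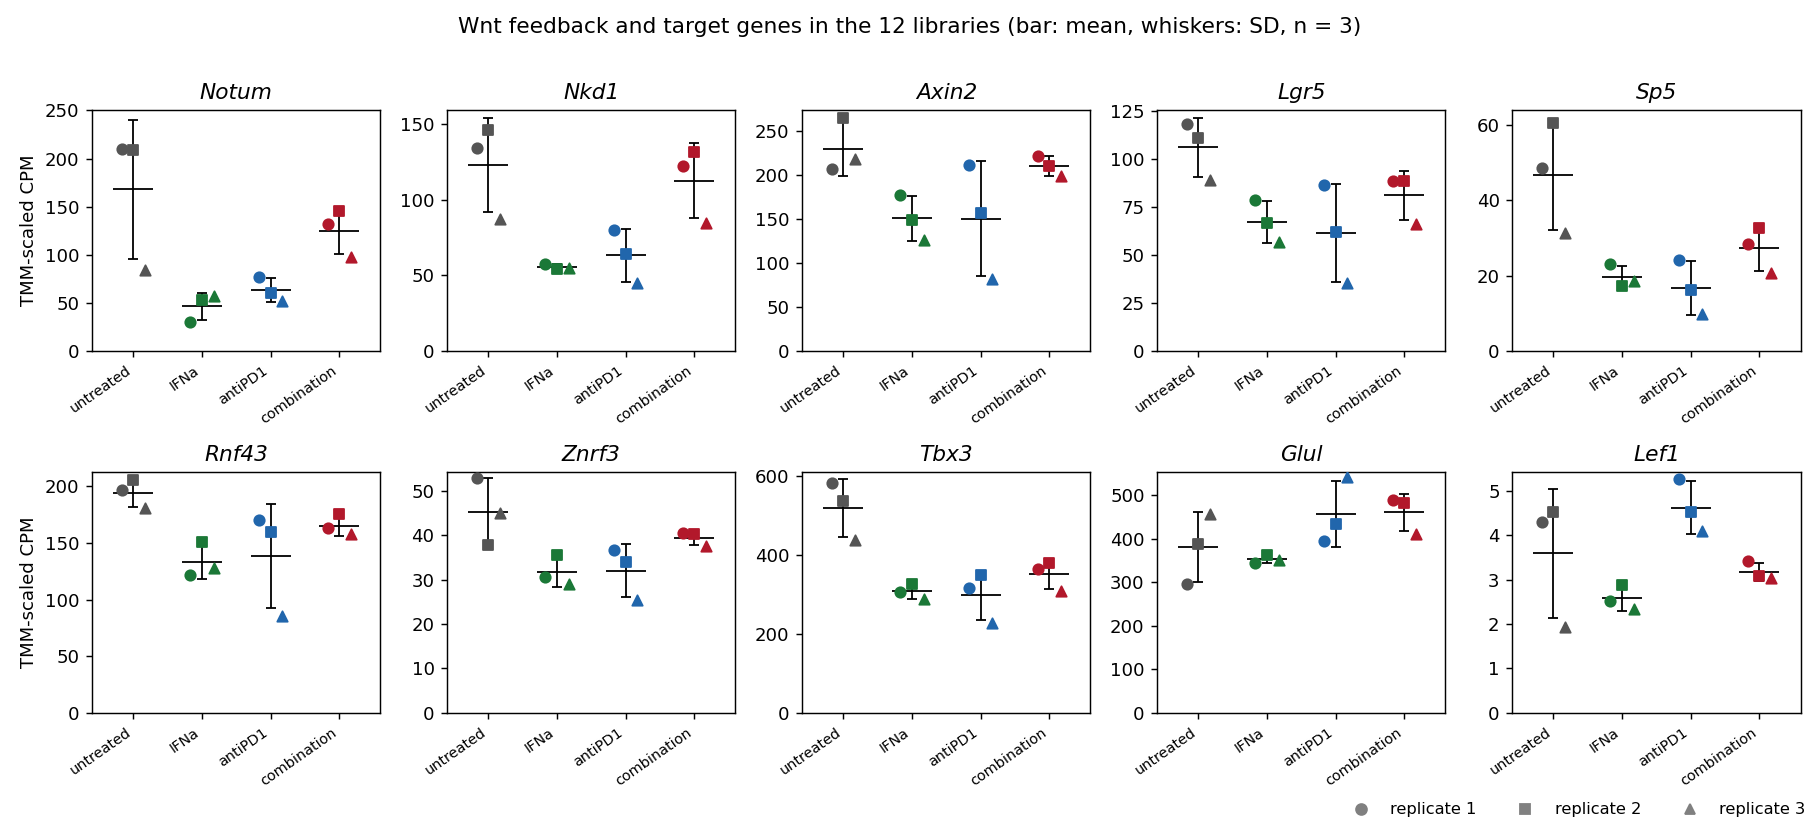
CPM of each of the 10 genes in each library (points) with the group mean and SD (n = 3). For Notum, Nkd1 and Znrf3, the IFNa and antiPD1 points lie below both the untreated and the combination points.

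Per length, on the deposited FPKM scale, Glul was the most abundant member in untreated libraries at 112 ± 26.5 FPKM, followed by Tbx3 at 82.9 ± 10.4, and their ranges overlapped. Axin2 (31.4 ± 3.31), Notum (30.0 ± 12.3), Sp5 (28.3 ± 7.41) and Rnf43 (24.7 ± 0.739) came next, and neighbours in this order overlapped, though Axin2 and Rnf43 did not. Lgr5 had 21.2 ± 2.57 and Nkd1 17.2 ± 3.89 FPKM, overlapping each other but, for Lgr5, not Rnf43. Znrf3, at 5.04 ± 0.809, and Lef1, at 0.669 ± 0.267, were the least abundant and separate from all others. With IFNa, Notum at 8.41 ± 2.94 FPKM was below Sp5 at 12.2 ± 1.64 and Rnf43 at 17.5 ± 2.15.

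Library to library, most members shared their lowest library within the untreated, antiPD1 and combination groups, but not with IFNa. IFNa 1, 2 and 3 were lowest for 3, 2 and 5 of the 10 genes. IFNa 1 was lowest for Notum, Rnf43 and Glul and highest for Nkd1, Axin2, Lgr5 and Sp5. Untreated 3 was the lowest untreated library for 7 of the 10 genes (Notum, Nkd1, Lgr5, Sp5, Rnf43, Tbx3 and Lef1) and the highest for Glul. Among untreated libraries it also had the highest fibroblast sum, 1695 CPM, and the lowest hepatoma sum, 21068 CPM. AntiPD1 3 was the lowest antiPD1 library for 9 genes and the highest for Glul. It had the highest T cell sum, 310 CPM, and also the highest adult hepatocyte and hepatoma sums, 2385 and 24832 CPM. Combination 3 was the lowest of its group for all 10 and had the lowest hepatoma sum, 13153 CPM. The part of these marker levels in the order of the libraries was not tested.

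IFNa alone was compared with untreated over the 8 genes not chosen by value. With edgeR's quasi-likelihood test, 0 of 8 passed an adjusted p of 0.05 over all genes, against 0% of all genes tested. All 8 were lower (Glul not without untreated 3, at 0.042), with a median log2 difference of -0.58 beside 0.01 over all genes. Sp5 differed by -1.25 ± 0.32 (adjusted p = 0.749) and Tbx3 by -0.76 ± 0.16 (adjusted p = 0.749), followed by Lgr5 at -0.66 ± 0.27 (0.885) and Axin2 at -0.61 ± 0.27 (0.885). Rnf43 differed by -0.54 ± 0.21 (0.879), Znrf3 by -0.51 ± 0.16 (0.866), Lef1 by -0.47 ± 0.30 (0.885) and Glul by -0.11 ± 0.16 (0.924). At an unadjusted p of 0.05, 6 of the 8 passed, against 5.59% of all genes. DESeq2 called 1 member, Tbx3 (-0.74, adjusted p = 0.0202), among 0.266% of its genes. Among the 8, the libraries of 6 were lower without overlap (not Glul and Lef1), against 5.22% of genes.

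AntiPD1 alone was the comparison with the most members called. Sp5 fell by 1.49 ± 0.33 on the log2 scale (adjusted p = 0.0218) and Tbx3 by 0.81 ± 0.16 (adjusted p = 0.0203), so 2 of 8 fell and 0 rose, while 5.08% of all genes fell, 9.76% rose and 14.8% changed in either direction. DESeq2 called 4 of 8, among 21.5% of its genes, adding Lgr5 (-0.78, adjusted p = 0.0320) and Znrf3 (-0.49, 0.0321). The median of the 8 was -0.55, or -0.32 without antiPD1 3, beside -0.01 over all genes. Znrf3 (-0.50 ± 0.16, adjusted p = 0.0561) and Lgr5 (-0.79 ± 0.27, 0.0698) were close to the threshold. Rnf43 (-0.49 ± 0.21, 0.124), Axin2 (-0.61 ± 0.27, 0.137), Glul (0.26 ± 0.16, 0.263) and Lef1 (0.37 ± 0.30, 0.415) did not pass. Among the 8, the antiPD1 libraries of 5 lay below the untreated ones without overlap (Lgr5, Sp5, Rnf43, Znrf3 and Tbx3), against 18.5% of genes. Without antiPD1 3, Tbx3 differed by -0.63 (adjusted p = 0.0433) and Sp5 by -1.20 (adjusted p = 0.0588), and Axin2 moved to -0.30, Lgr5 to -0.50, Rnf43 to -0.22 and Glul to 0.13. Notum without that library was at -1.28 and Nkd1 at -0.75. Both calls were lost without untreated 1 (Sp5 adjusted p = 0.0968, Tbx3 0.0944) and without untreated 2 (0.0927 and 0.0892). Without antiPD1 1, Axin2 (-0.94, 0.0345), Lgr5 (-1.12, 0.0202) and Znrf3 (-0.61, 0.0416) passed as well. Calls over all genes ranged from 5 to 3027 as single libraries were left out.

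With the combination, 1 of 8 members passed, against 12.6% of all genes. Tbx3 fell by 0.57 ± 0.16 (log2, adjusted p = 0.0427). Sp5 was at -0.78 ± 0.32 (adjusted p = 0.124), Lgr5 at -0.39 ± 0.27 (0.342), Rnf43 at -0.23 ± 0.21 (0.461), Znrf3 at -0.20 ± 0.16 (0.412) and Axin2 at -0.13 ± 0.27 (0.774). Lef1 was at -0.18 ± 0.30 (0.720) and Glul at 0.27 ± 0.16 (0.259). The median of the 8 was -0.22, or -0.38 without untreated 3, beside -0.01 over all genes, and Lgr5, Rnf43 and Tbx3 alone were below untreated without overlap, 3 of 8 against 24.8% of genes. The Tbx3 call was lost without any single combination library (adjusted p 0.0799 to 0.146), without untreated 1 (0.163) or untreated 2 (0.138), without IFNa 2 (0.0577), IFNa 3 (0.0546) or antiPD1 1 (0.0512), and with limma on the FPKM values (0.114 to 0.135). The comparisons with untreated share the same 3 untreated libraries, so they are not independent of each other.

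**Figure D3:**
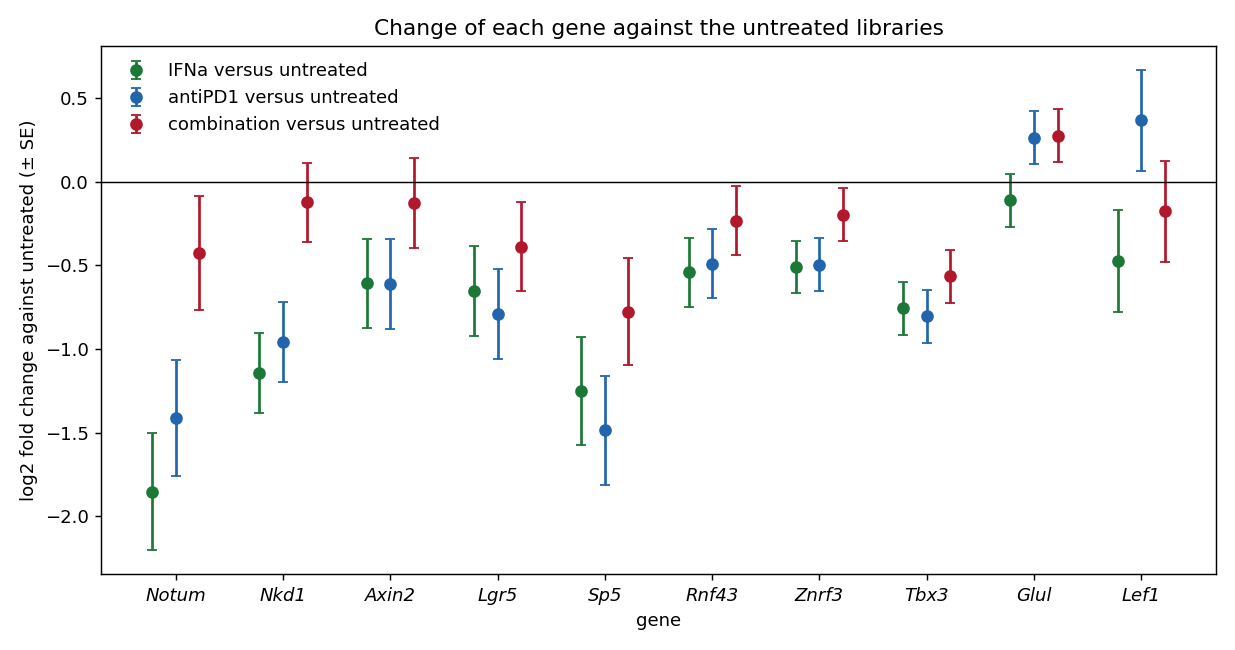
Log2 fold change from untreated of each gene with IFNa, antiPD1 and the combination, with SE from the fit over 12 libraries. Notum, Nkd1 and 6 others lie below 0 in all 3 comparisons, and for each of these the combination lies nearest to 0.

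Adding IFNa to antiPD1 was examined by setting the combination against antiPD1. None of the 8 passed (0 of 8 by edgeR and 0 by DESeq2, against 0% and 0.0830% of genes), and 1 of 8 passed at an unadjusted p of 0.05, against 4.76%. Their median was 0.28, or 0.13 without antiPD1 3 and 0.42 without antiPD1 1, beside -0.02 over all genes. Notum was higher by 0.99 ± 0.34 (log2), Nkd1 by 0.83 ± 0.24, Sp5 by 0.71 ± 0.32, Axin2 by 0.48 and Lgr5 by 0.40. Among the 8, combination libraries lay above antiPD1 libraries without overlap for Znrf3, 1 of 8 against 7.49% of genes, and below them for Lef1, 1 of 8 against 6.66%. Notum and Nkd1 also lay above, as they were chosen to. Without antiPD1 3, Notum was higher by 0.86 and Nkd1 by 0.63, while Axin2 dropped to 0.18, Lgr5 to 0.12, Sp5 to 0.43, Znrf3 to 0.15, Tbx3 from 0.24 to 0.07 and Rnf43 from 0.26 to -0.0033.

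Adding antiPD1 to IFNa was examined by setting the combination against IFNa. Of the 8, 0 passed by edgeR and 0 by DESeq2 (0.956% and 11.4% of genes), 1 passed at an unadjusted p of 0.05 (23.1%), and the median was 0.31 beside 0.02 over all genes. Notum was higher by 1.43 ± 0.35 and Nkd1 by 1.02 ± 0.24 (log2), followed by Axin2 at 0.48 ± 0.27 (adjusted p = 0.307) and Glul at 0.38 ± 0.16 (0.180). For 5 of the 8 (Axin2, Rnf43, Znrf3, Glul and Lef1) the combination libraries were all above the IFNa ones, against 20.3% of genes. With IFNa 1 and antiPD1 3 both left out of the fit, Axin2 alone of the 8 passed, at 0.59 (adjusted p = 0.0377). The share of all genes that passed in that fit is not given. When 1 library was left out, calls over all genes in this comparison ranged from 0 to 1452.

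The interaction asks whether the effect of both treatments differs from the sum of the single effects. None of the 8 passed with edgeR (0 of 8, against 0% of genes), 6 of 8 passed at an unadjusted p of 0.05 against 6.06% of genes, and limma called 0. DESeq2 called 2 of 8, Sp5 (1.93, adjusted p = 0.0156) and Tbx3 (0.97, adjusted p = 0.0318), among 0.323% of its genes. On the edgeR scale Sp5 had the largest value of the 8, 1.96 ± 0.46 (log2, adjusted p = 0.409), then Axin2 at 1.09 ± 0.38 (0.799), Lgr5 at 1.06 ± 0.38 (0.799) and Tbx3 at 1.0 ± 0.22 (0.376). Znrf3 was at 0.81 ± 0.22 (0.612) and Rnf43 at 0.80 ± 0.29 (0.799), whereas Glul, at 0.12 ± 0.22, and Lef1, at -0.07 ± 0.43, were within 1 SE of 0. The median of the 8 was 0.90 beside -0.03 over all genes. Without antiPD1 3, Sp5 was at 1.64, Axin2 at 0.76, Lgr5 at 0.74, Rnf43 at 0.51, Glul at 0.22 and Lef1 at -0.19.

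Whether the members share the pattern of Notum and Nkd1 was then counted library by library. For 7 of 10 genes (Notum, Nkd1, Lgr5, Sp5, Rnf43, Znrf3 and Tbx3) every IFNa and every antiPD1 library lay below every untreated one, as it did for 409 of the tested genes, 2.85%. For 3 of 10 (Notum, Nkd1 and Znrf3) every combination library also lay above every single-treatment library, as it did for 31 genes, 0.216%. Notum and Nkd1 were chosen for this. Of the 8 genes listed to be compared, 5 shared the first order and 1, Znrf3, the full order. Without IFNa 1 and antiPD1 3 the same 7 and the same 3 members were counted, beside 7.24% and 0.558% of genes.

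Likeness was described by Pearson's r of log2 CPM over all 12 libraries, which all genes share, so no p is given. Nkd1 had the highest r with Notum of all tested genes (0.927, Spearman's rho 0.944). Both were chosen for a shared pattern over these libraries, so a high r between them follows from that choice. Among the 8 others, r with Notum was 0.784 for Sp5, 0.777 for Tbx3, 0.737 for Rnf43, 0.737 for Znrf3, 0.669 for Lgr5, 0.635 for Axin2, 0.352 for Lef1 and -0.026 for Glul, beside a median of 0.0034 over all genes. With Nkd1 the values were higher for 6 of them: 0.896 for Sp5, 0.841 for Lgr5, 0.834 for Axin2, 0.821 for Tbx3, 0.818 for Rnf43 and 0.796 for Znrf3. Those 6 ranked between 5 and 42 among all tested genes for likeness to Nkd1, while Lef1, at 0.240, ranked 3870 and Glul, at -0.055, ranked 7931. After group means were removed, r with Nkd1 was 0.963 for Sp5, 0.857 for Lgr5, 0.830 for Tbx3 and 0.726 for Lef1, but 0.423 for Znrf3. Znrf3 therefore followed Nkd1 between groups more than within them, and Lef1 the reverse. Without IFNa 1 and antiPD1 3 (10 libraries), r with Notum was 0.923 for Sp5, 0.874 for Lgr5, 0.804 for Rnf43, 0.802 for Tbx3 and 0.793 for Axin2, but fell to 0.687 for Znrf3. With Nkd1 it fell to 0.689 for Znrf3 and to 0.746 for Tbx3. Some pairs among the 8 were as close as Notum and Nkd1: Lgr5 with Sp5 had r = 0.945, Axin2 with Lgr5 0.926 and Sp5 with Tbx3 0.919.

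**Figure D4:**
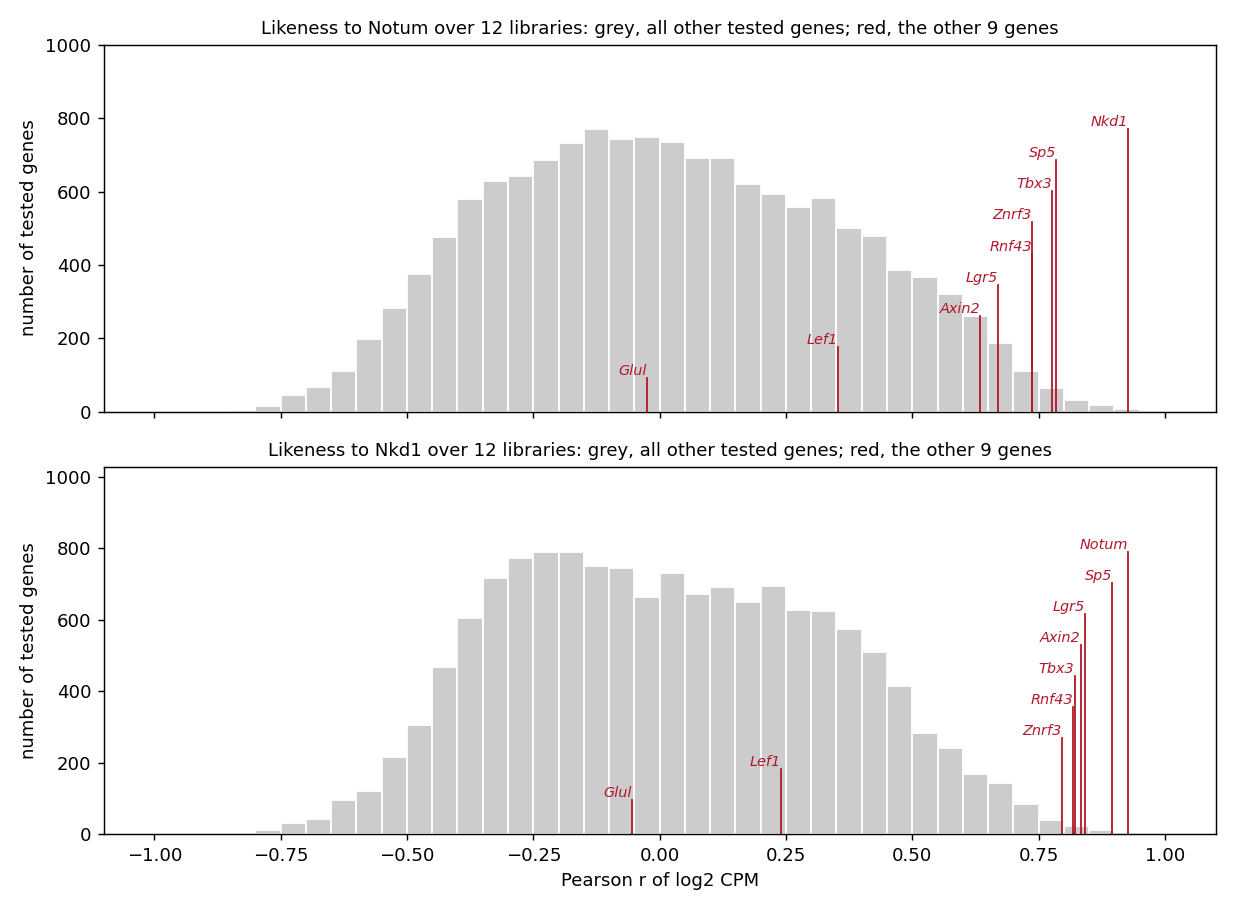
Pearson's r of log2 CPM over 12 libraries with Notum and with Nkd1 for all tested genes (grey histogram, number of genes) and for the members (red lines, whose height has no meaning). For 6 members other than Notum and Nkd1 the values lie at the upper end, between 0.635 and 0.896, whereas Glul lies near 0.

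Outside the members, the genes of at least 5 CPM most like Notum after Nkd1 were D630039A03Rik (r = 0.915), Dlat (0.906), Pycr1 (0.904), Pls3 (0.904) and Kif26b (0.901). Those most like Nkd1 after Notum were Dlat (0.909), Ccdc92 (0.901), Sp5, Pls3 (0.885) and Tcf4 (0.883). Tcf4 is the bHLH factor of that symbol, not the Wnt effector Tcf7l2. Pls3, an actin-bundling protein, measured 258, 143, 157 and 220 CPM in the untreated, IFNa, antiPD1 and combination means. Kif26b, a kinesin-family protein, measured 22.2, 11.5, 11.6 and 19.4 CPM, and Pycr1, an enzyme of proline synthesis, 11.2, 3.92, 7.28 and 9.95. Dlat, a subunit of the pyruvate dehydrogenase complex, moved little, at 67.0, 62.1, 63.3 and 67.3 CPM.

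The rest of the pathway was read from 10 lists of 124 genes, 93 of them tested. With IFNa, 0 of the 93 passed. With antiPD1, 7 rose and 7 fell, and with the combination 6 rose and 9 fell, beside 14.8% and 12.6% of all genes called. Whether these calls held depended on the library left out. All 14 antiPD1 calls passed without IFNa 1 or without antiPD1 2. All 15 combination calls passed without IFNa 1, without antiPD1 2 or without antiPD1 3. Others were lost, as calls over all genes ranged from 5 to 3027 with antiPD1 and from 33 to 2917 with the combination. None of the 14 antiPD1 calls passed without untreated 1 or without untreated 2, and 2 (Fzd10 and Lgr4) passed without antiPD1 3. Of the 15 combination calls, 1 (Fzd10) passed without untreated 1, the same 1 without untreated 2, 3 without combination 1, 1 without combination 2 and 0 without combination 3. No sign changed in any of these.

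Among Wnt ligands, 7 of 19 were tested. Wnt6 rose with the combination, from 15.1 ± 4.90 to 38.6 ± 8.18 CPM (1.35 ± 0.31, adjusted p = 0.0261), and was also higher there than with IFNa alone, at 11.7 ± 1.22, the single list gene called in that comparison. Wnt10a rose from 24.8 to 47.8 CPM (0.95 ± 0.21, adjusted p = 0.0243). Wnt5a, a ligand best known for non-canonical signalling, was scarce and rose from 0.541 to 1.71 CPM with antiPD1 (adjusted p = 0.0332) and to 1.53 with the combination (0.0478). Wnt9a passed with antiPD1 at 0.505 CPM, but its untreated level of 0.0420 CPM lay under the level of 3 counts, so no fold is given. Wls, which carries Wnt proteins to the cell surface, rose from 3.80 ± 2.48 to 13.8 ± 9.83 CPM with antiPD1 (1.86, adjusted p = 0.0385). The medians of the 7 ligands were 0.78, 0.96 and 1.35 (log2) with IFNa, antiPD1 and the combination, beside 0.01, -0.01 and -0.01 over all genes. The first and second of these are the folds of Wnt11, at 0.124 CPM untreated, and Wnt9a, without an interpretable fold, is among the 7.

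With all libraries, the receptors that passed were all lower. Fzd10 fell from 212 ± 53.6 CPM to 85.9 ± 19.8 with antiPD1 (-1.30 ± 0.20, adjusted p = 0.0154) and to 80.4 ± 4.20 with the combination (-1.40 ± 0.20, adjusted p = 0.00861), with 151 ± 10.6 under IFNa. Fzd8 fell from 37.3 ± 5.78 to 23.6 ± 5.25 and 22.2 ± 1.98 CPM (adjusted p = 0.0320 and 0.0259), and Fzd4 fell with the combination from 124 ± 23.1 to 71.7 ± 6.51 (0.0302). Lgr4, an R-spondin receptor like Lgr5, fell from 59.1 ± 5.29 to 31.3 ± 5.47 CPM with antiPD1 (-0.92 ± 0.13, adjusted p = 0.0139) and to 42.9 ± 4.45 with the combination (-0.46 ± 0.13, adjusted p = 0.0433). Of the 13 receptors tested, 2 fell with antiPD1 and 3 with the combination, and 0 rose. With antiPD1, 5.08% of all genes fell and 14.8% were called in either direction. With the combination, 12.6% were called in either direction. Without IFNa 1 and antiPD1 3, 6 receptors fell and 1 rose with the combination. Their median was -0.16 (log2) in that fit and -0.17 with all libraries. The share of all genes called in that fit is not given. These few calls were not tested as a set.

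Secreted and surface inhibitors other than Notum were mixed. Dkk3 rose from 5.05 ± 2.63 CPM to 26.1 ± 14.5 with antiPD1 (2.37 ± 0.48, adjusted p = 0.0207) and 18.5 ± 2.38 with the combination (1.87 ± 0.47, adjusted p = 0.0325). Sfrp1 rose from 1.55 to 6.13 and 5.64 CPM (adjusted p = 0.0378 and 0.0495), and Wif1, which binds Wnt proteins outside the cell, fell with antiPD1 from 6.24 ± 2.59 to 0.872 ± 0.201 CPM (-2.84 ± 0.61, adjusted p = 0.0213). Dkk3 and Sfrp1 are also expressed by fibroblasts, whose marker sum was 456 to 1695 CPM in untreated and 1488 to 4189 CPM in antiPD1 libraries. The part of those cells was not tested. Nkd2, the paralogue of Nkd1, rose with antiPD1 from 0.287 to 0.807 CPM (1.47, adjusted p = 0.0385), opposite in sign to Nkd1.

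Most central components did not pass. Ctnnb1, which encodes beta-catenin, measured 1115 ± 122, 1007 ± 28.7, 884 ± 176 and 856 ± 16.0 CPM and did not pass (adjusted p = 0.112 with antiPD1 and 0.0847 with the combination). Of the 13 genes of beta-catenin and its destruction complex, Tnks2, a tankyrase that marks axins for degradation, fell with antiPD1 from 829 to 570.1 CPM (-0.54, adjusted p = 0.0440), and Btrc, the ligase subunit that recognises phosphorylated beta-catenin, fell with the combination (-0.46, 0.0400). Tle1, a co-repressor of TCF factors, fell from 110.1 to 64.9 CPM with antiPD1 (adjusted p = 0.0250) and 58.8 with the combination (0.0179). Tcf7, picked after its values were seen, measured 99.8, 75.9, 81.7 and 99.5 CPM. It was lower with either single treatment and passed in no comparison.

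Of 16 further Wnt target genes tested, 2 rose and 1 fell with antiPD1, and 1 rose and 3 fell with the combination, beside the same 14.8% and 12.6%. Their medians were -0.16, -0.27 and -0.10 (log2) with IFNa, antiPD1 and the combination, nearer to 0 than those of the 8 members at -0.58, -0.55 and -0.22. Without IFNa 1 and antiPD1 3, the medians of the 16 were -0.24, -0.14 and -0.09, beside -0.58, -0.32 and -0.21 for the 8. Myc fell with the combination from 176 to 98.5 CPM (-0.84, adjusted p = 0.0383), with 142 and 111 under IFNa and antiPD1. Prox1, a liver transcription factor, fell from 298 to 198 with antiPD1 (adjusted p = 0.0302) and 168 with the combination (0.0159). Id2 fell from 705 to 494 with the combination (0.0213). Mmp7, a secreted protease, rose from 4.79 to 15.0 and 16.5 CPM with antiPD1 and the combination (adjusted p = 0.0366 and 0.0335). With IFNa it measured 17.5 ± 12.1 CPM and did not pass (1.87 ± 0.46, adjusted p = 0.749). Ccnd1, encoding cyclin D1, measured 383, 371, 424 and 643 CPM and did not pass (0.75 with the combination, adjusted p = 0.0641). Tnfrsf19 (33.5, 26.9, 22.8 and 35.5 CPM) and Ephb3 (3.98, 2.03, 2.0 and 3.63), 2 genes picked after their values were seen, had lower means with either single treatment than untreated or with the combination, but none of the genes of these lists was among the 31 with that order in every library.

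Genes that the healthy liver expresses around the central vein, largely under Wnt control, were read from a list without the members. Of 12 pericentral genes, 0 passed in any comparison, and their medians were -0.10, 0.88 and 0.72 (log2) with IFNa, antiPD1 and the combination. With antiPD1, 8 of the 12 were higher than untreated and 4 lower. Lect2, a secreted liver protein among the 4, was picked after its values were seen and measured 35.5, 27.0, 28.7 and 34.5 CPM. Of 10 periportal genes, 0 passed, with medians of 1.26, 1.49 and 0.61. These medians moved when the IFNa and antiPD1 libraries with the highest hepatocyte sums were left out. Without IFNa 1 and antiPD1 3, the pericentral medians were -0.33, -0.01 and 0.72, and the periportal medians with IFNa and antiPD1 were 0.03 and 0.39. In that fit, 1 pericentral gene rose and 1 fell with the combination, and likewise 1 and 1 in the combination against IFNa. Of the periportal genes, 1 fell with antiPD1, 1 with the combination and 1 in the combination against IFNa. The share of all genes called in that fit is not given, so these counts are not read as a result about the lists.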

How the data were processed

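The submitters' processing notes name mm10 with HISAT2 2.1.0, HTSeq and Cufflinks. What each did, the annotation and the strand setting were not given there. The authors deposited whole read counts per gene. Their second deposited table gives the same genes as FPKM (fragments per kilobase of gene and M fragments). Groups came from the labels. Counts were filtered (filterByExpr, minimum count 10), scaled by TMM and tested with edgeR 4.0.16 (robust quasi-likelihood, R 4.3.3) over all 12 libraries with 1 mean per group, with Benjamini-Hochberg adjustment over 14330 genes (threshold 0.05). Totals of 31.3 to 38.5 M limit scarce genes most. Standard errors are the fold divided by the square root of F. CPM are counts per M of the scaled library size, and log2 CPM for correlations used a prior count of 2. No fold is given against a level under 3 counts per library. That floor covers counting error only, whereas the SD and SE include the spread between libraries. All pairs of replicates differed by more than sampling noise (chi-square per degree of freedom at least 14.8).

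The members, gene lists and tests were chosen with earlier results of these data known. The genes named are the members, the 6 genes of at least 5 CPM with the highest r with Notum and likewise with Nkd1, and from each pathway list the genes called, or otherwise up to 3 of the highest level. From this set the text gives examples. Ctnnb1, Tcf7, Ccnd1, Tnfrsf19, Ephb3, Wnt11 and Lect2 were named outside this rule, with their values known. Alternatives were RLE size factors, no filter, only the groups compared, DESeq2 1.42.0, a replicate block, limma 3.58.1 on FPKM with a pseudocount of 1 or 0.1 (genes of at least 1 FPKM in 3 libraries, and with pseudocount 1 also all genes), leaving out each library, and leaving out IFNa 1 and antiPD1 3 together. The overlap counts without those 2 libraries, the medians without single libraries and the acinar sums without Cela1 were added after seeing the data. The fitting script was tested on simulated data. Promoter windows are from RefSeq, matched by symbol, and coordinates from GENCODE M21.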

Additional observations from a re-analysis of the deposited data

Results flagged for a closer look

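For 4 members, libraries of a single treatment lay below untreated without overlap, and combination libraries lay above those of the other single treatment without overlap. The share of all genes with this order was not counted. The Notum difference between the effect of IFNa with and without antiPD1, which equals that between the effect of antiPD1 with and without IFNa, was 2.84 (log2), and that of Nkd1 was 1.98. Both genes were chosen for this, and the difference was not tested. For Znrf3 the same difference was 0.81 in both directions, and its interaction test gave an adjusted p of 0.612 with edgeR. Rnf43 showed it for antiPD1 without and with IFNa, at 0.80 (adjusted p = 0.799). Its combination libraries were all above the IFNa libraries and its antiPD1 libraries all below the untreated ones. Taken separately, these orders held for 20.3% and 18.5% of all genes.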

How the results depend on the processing

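Of the 8 members tested, the number called with IFNa was 0, 1 with DESeq2 and 0 to 0 when 1 library was left out. With antiPD1 it was 2, 0 with only the groups compared, 4 with DESeq2, 4 with the replicate block and 0 to 5 when 1 library was left out, which moved the calls over all genes from 5 to 3027. With the combination it was 1, 0 in each limma analysis of FPKM, and 0 to 1 without 1 library (33 to 2917 genes). In the combination against IFNa it was 0, and 1 without IFNa 1 and antiPD1 3. For the interaction it was 0, and 2 with DESeq2. The pathway genes called with the combination numbered 15, and 30 without those 2 libraries, and against IFNa 1 and 10. The share of all genes called in that fit is not given. Calls over all genes against IFNa ranged from 0 to 1452 when 1 library was left out. These pathway counts are therefore not read as a result about the pathway.

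The replicate number was no shared animal or batch in the labels. Same-numbered libraries of different groups had correlated deviations of -0.30 to 0.50, with 8 of 18 above 0.1, so the numbers were not taken as a pairing. The block called Lgr5 (-0.85, adjusted p = 0.0128) and Znrf3 (-0.51, 0.0458) with antiPD1 beside Sp5 and Tbx3, and no other call of the 8 changed with it.

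Signs turned only in small values. Without IFNa 1 and antiPD1 3, Rnf43 in the combination against antiPD1 was -0.0033. When 1 library was left out, that value ranged from -0.0033 to 0.43. Glul with IFNa ranged from -0.25 to 0.042, Nkd1 with the combination from -0.32 to 0.044 and Lef1 with the combination from -0.48 to 0.016. Glul in the combination against antiPD1 ranged from -0.083 to 0.14. For the interaction, Glul ranged from -0.031 to 0.25 and Lef1 from -0.29 to 0.23. The cause was not tested. Depth limits Lef1 most, at 63 to 186 counts per library.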

Other observations

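Beside Notum, Nkd1 and Znrf3, 28 tested genes had all IFNa and antiPD1 libraries below all untreated libraries and all combination libraries above them. They were found by that order, so their values are a description. Among them, Pls3 and Kif26b were also among the genes most like Notum. Pfas and Gart encode enzymes of purine synthesis. Pfas measured 80.0 ± 3.97 CPM untreated, 61.2 ± 6.89 with IFNa, 58.2 ± 6.78 with antiPD1 and 70.9 ± 1.27 with the combination, and Gart 100.3, 86.9, 83.5 and 93.1. Elovl6, a fatty acid elongase, measured 29.2, 19.2, 16.8 and 24.4 CPM. Ffar2, a receptor for short-chain fatty acids, measured 25.5, 15.3, 11.9 and 32.1 CPM, and Fut2, a fucosyltransferase, 37.4, 26.5, 26.4 and 40.3. In both of the last, the combination mean was above the untreated one. These genes were picked as examples after their values were seen.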
